A study of Mus musculus with 12 samples.

Results

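The TRIM genes encode tripartite motif proteins, most of them ubiquitin ligases with a RING finger, a B-box and a coiled coil. They were taken as the genes whose symbol is Trim, a number and at most 1 letter, and whose value reached 1 in at least 3 of the 12 libraries. Of 68 genes with such a symbol, 50 met that minimum, among 20419 of 53465 genes that met it in all. The libraries held RNA of peritoneal macrophages from C57BL/6 mice at postnatal week 10, in 4 groups of 3. These were Lyz2Cre-BHLHE40-Fl with LPS, Lyz2Cre-BHLHE40-Fl as control, Lyz2Cre with LPS and Lyz2Cre as control. Both genotype labels carry Lyz2Cre, in which the Cre recombinase is expressed from the lysozyme gene of myeloid cells, so recombination is limited to cells that use that promoter. BHLHE40 belongs to the basic helix-loop-helix transcription factors, and the series asks what it does in the inflammatory response of macrophages. LPS, lipopolysaccharide of Gram-negative bacteria, signals through the receptor TLR4. The sources used here give neither its dose nor the time of exposure. They also do not say whether the 3 libraries of a group came from separate animals, so the p-values cover just the spread of these libraries, which may be technical.

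As background, TRIM proteins attach ubiquitin to themselves and to other proteins through the RING finger, and most use a C-terminal PRY-SPRY domain to choose their targets. In macrophages LPS activates NF-kB and, through the adaptor TRIF, interferon beta, whose signal acts back on the same cells. Many TRIM genes are interferon-stimulated, and their products restrict viruses or adjust signalling of RIG-I, cGAS and Toll-like receptors.

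Between 20489417 and 29354869 reads per library lay behind the values, and 1 read was worth 0.725 to 1.56 in the deposited, scaled values. The targeted gene went against its label: Bhlhe40 had 7617 to 8046 in the controls labelled Lyz2Cre-BHLHE40-Fl and 4737 to 5306 in the Lyz2Cre controls, a log2 difference of 0.67. With LPS its values were 1956 to 2415 in the libraries labelled Lyz2Cre-BHLHE40-Fl and 2212 to 2644 in the Lyz2Cre libraries. Values summed over all exons of a gene do not reveal whether a few exons are missing, and every genotype direction below rests on the label. Cell type markers moved with the label as well. The summed value of 7 macrophage markers was 60686 to 69116 in controls labelled Lyz2Cre-BHLHE40-Fl and 116901 to 128988 in Lyz2Cre controls, and that of 12 mesothelial and stromal markers was 9716 to 12848 in controls labelled Lyz2Cre-BHLHE40-Fl and 1882 to 2009 in Lyz2Cre controls. With LPS the macrophage sums were 86491 to 90318 under Lyz2Cre-BHLHE40-Fl and 159443 to 166777 under Lyz2Cre, and the mesothelial and stromal sums were 10363 to 13978 under Lyz2Cre-BHLHE40-Fl and 3082 to 4519 under Lyz2Cre. Between labels in controls 15.0% of all genes tested were called higher and 16.6% lower, by the rule given below. With LPS these shares were 17.7% and 19.8%. All 12 mesothelial and stromal markers were called higher under Lyz2Cre-BHLHE40-Fl in both treatments, and Upk3b, Msln and Krt18 were at 0 in the Lyz2Cre controls. Of the 7 macrophage markers 6 were called lower in both treatments, and Cd68, the largest, was not called. Markers of resident peritoneal macrophages were split, with Gata6 called higher and Icam2 and Prg4 lower in both treatments. Their sum in controls was 399.5 to 452.2 under Lyz2Cre-BHLHE40-Fl and 193.4 to 247.1 under Lyz2Cre. In both treatments 5 of 6 T cell and 3 of 4 neutrophil markers were called lower. The other T cell marker, Lck, was called higher with LPS and was not called in controls. The other neutrophil marker, Ltf, was called higher in controls and was not called with LPS. The T cell sums with LPS were 1013 to 1301.5 under Lyz2Cre-BHLHE40-Fl and 401.5 to 466.5 under Lyz2Cre. In bulk RNA, fewer cells of a type and less RNA per cell cannot be told apart, and the part of these markers in the TRIM differences was not tested.

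LPS raised many TRIM genes and lowered many others, under both genotype labels. A gene was called where its limma adjusted p lay below 0.05, with no minimum change. Under Lyz2Cre-BHLHE40-Fl 23 of the 50 genes were called higher and 14 lower, where 24.9% and 25.6% of all genes tested were called higher and lower (50.5% in either direction). Under Lyz2Cre 20 were called higher and 16 lower, where the shares of all genes were 25.0% and 23.9% (48.9% in either direction). The median log2 change of the family was 0.28 under Lyz2Cre-BHLHE40-Fl and 0.17 under Lyz2Cre, where those over all genes tested were -0.05 and 0. For the 40 genes outside the TRIM5 cluster, described below, the median was 0.02 under Lyz2Cre-BHLHE40-Fl and -0.24 under Lyz2Cre. Of these 40, 14 were called higher and 14 lower under Lyz2Cre-BHLHE40-Fl, and 11 higher and 16 lower under Lyz2Cre. The LPS comparisons share no libraries in their means. Their p-values are not independent, because the spread of each gene was estimated once over all 12 libraries. Of the genes called higher, 19 were called under both labels, which is 82.6% of the 23 and 95% of the 20, where over all genes tested the same shares were 76.8% and 76.5%. Of those called lower, 11 were called under both, which is 78.6% of the 14 and 68.8% of the 16, where the shares over all genes were 68.6% and 73.7%. The split depended on the scaling, and the deposited totals were larger in LPS libraries than in controls. With equal library totals the median of all genes moved to -0.56 under Lyz2Cre-BHLHE40-Fl and -0.58 under Lyz2Cre, and the family counts became 16 higher and 21 lower under Lyz2Cre-BHLHE40-Fl, and 15 higher and 24 lower under Lyz2Cre. With TMM scaling they were 21 higher and 14 lower under Lyz2Cre-BHLHE40-Fl, and 17 higher and 18 lower under Lyz2Cre.

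**Figure D1:**
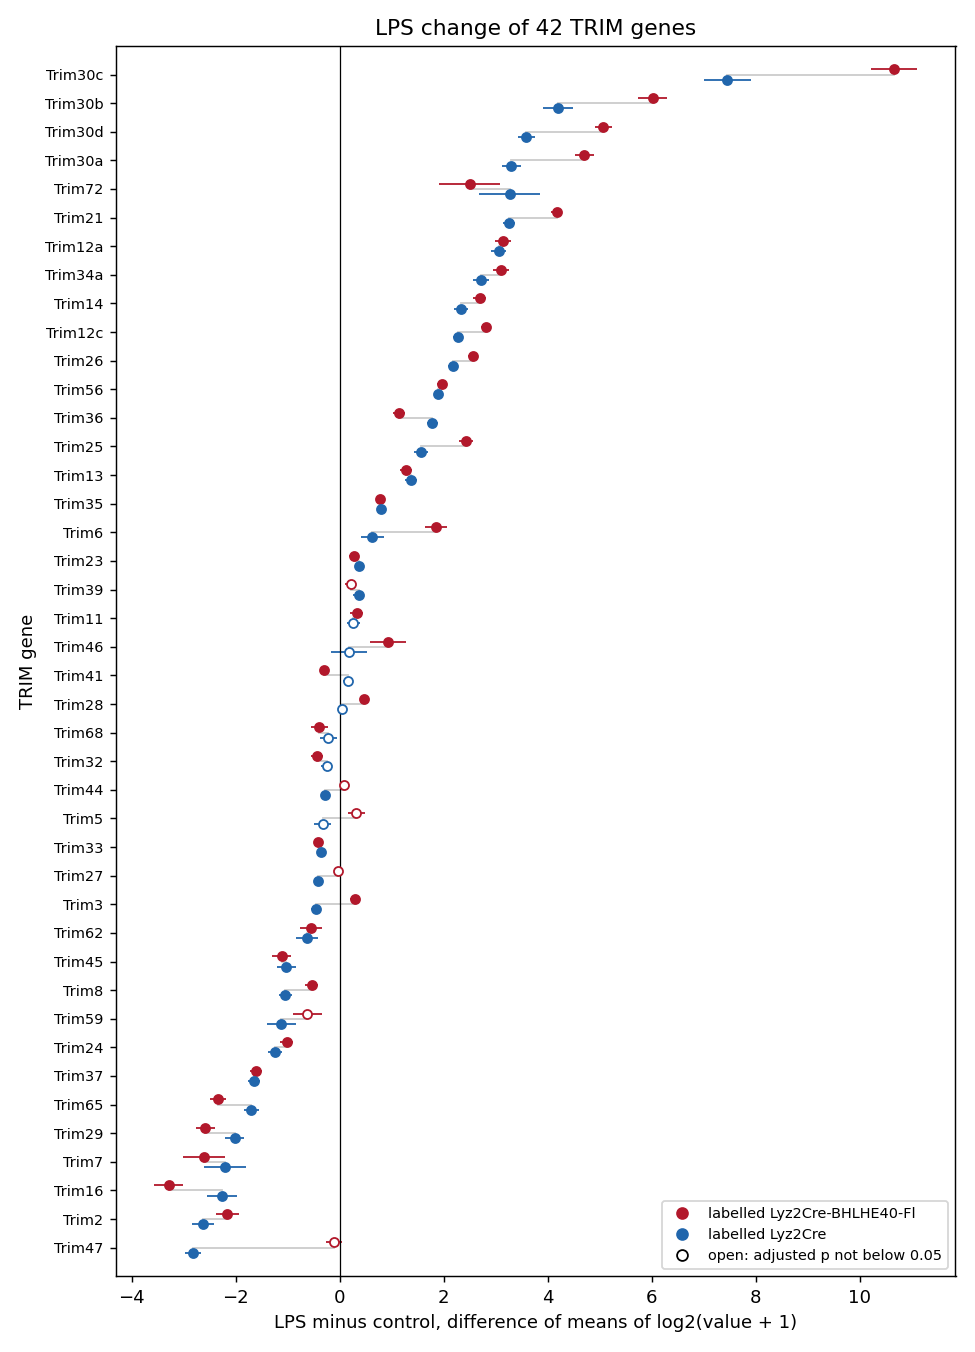
The log2 change with LPS of the 42 TRIM genes that reached a mean of 10 in a group, with points for means and bars for the standard error, under Lyz2Cre-BHLHE40-Fl (red) and Lyz2Cre (blue). Trim30c stands at the top, at 10.66 under Lyz2Cre-BHLHE40-Fl and 7.46 under Lyz2Cre, and Trim47 at the bottom, at -0.11 under Lyz2Cre-BHLHE40-Fl and -2.83 under Lyz2Cre.

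The family's summed value was 149678 ± 2304 in LPS libraries labelled Lyz2Cre-BHLHE40-Fl, against 28517 ± 31.5 in their controls, and 137314 ± 1540 in Lyz2Cre LPS libraries, against 34498 ± 5177 in Lyz2Cre controls (SD, n = 3 each). In LPS libraries most of that total came from 10 genes that lie side by side on chromosome 7 (GRCm38, chr7:104218793-104507849, 289 kb), the TRIM5 cluster. It holds Trim5, Trim6, Trim12a, Trim12c, Trim34a, Trim34b and the rodent genes Trim30a, Trim30b, Trim30c and Trim30d. In other species TRIM5 is known as a restriction factor that binds the capsid of incoming retroviruses, and mouse TRIM30a is known to dampen NF-kB signalling by promoting the loss of TAB2 and TAB3. The cluster gave 62.6% of the family's value in LPS libraries labelled Lyz2Cre-BHLHE40-Fl and 12.9% in their controls. It gave 66.1% in Lyz2Cre LPS libraries and 26.3% in Lyz2Cre controls.

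In the cluster, 9 of 10 genes were called higher with LPS under each label, and Trim5 was not called. Among all genes tested 24.9% were called higher under Lyz2Cre-BHLHE40-Fl and 25.0% under Lyz2Cre. On the recovered reads edgeR called 8 of the 10 under each label, without Trim34b. The median log2 change of the 10 was 3.12 under Lyz2Cre-BHLHE40-Fl and 2.88 under Lyz2Cre. Trim30a, the gene with the highest mean over the 12 libraries, had 49996, 45915 and 45344 in LPS libraries labelled Lyz2Cre-BHLHE40-Fl, against 2097, 1608 and 1731 in their controls. Under Lyz2Cre it had 49216, 49686 and 47902 with LPS, against 4843, 7625 and 3298 in controls. The LPS libraries of both labels stood within a narrow band, and the controls differed, both between labels and among the Lyz2Cre libraries. The log2 change was 4.71 (SE 0.19, limma adjusted p = 3.57e-13) under Lyz2Cre-BHLHE40-Fl and 3.30 (SE 0.19, limma adjusted p = 6.76e-11) under Lyz2Cre. Per kilobase of exon, Trim30a ranked first among the TRIM genes in both Lyz2Cre groups, Trim30c in LPS libraries labelled Lyz2Cre-BHLHE40-Fl, and Trim28 in their controls.

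Trim30c had the largest log2 change of the family under both labels. Its values were 21713, 19436 and 19258 in LPS libraries labelled Lyz2Cre-BHLHE40-Fl, against 16.0, 7.9 and 11.6 in controls, a ratio of means of 1702. Under Lyz2Cre they were 10073, 11759 and 11218 with LPS, against 70.1, 162 and 20.1 in controls, a ratio of 131. That ratio was 244 without Lyz2Cre control replicate 2, where the mean of the other controls was 45.1. Every LPS library lay above every control library, and the limma adjusted p was 6.42e-13 under Lyz2Cre-BHLHE40-Fl and 1.24e-10 under Lyz2Cre. Trim30b had 1051, 951 and 966 with LPS under Lyz2Cre-BHLHE40-Fl, against 13.8, 12.6 and 16.7 in controls. Under Lyz2Cre its values were 967, 1057 and 1145 with LPS, against 53.9, 107 and 31.0 in controls. The log2 changes were 6.02 under Lyz2Cre-BHLHE40-Fl, where the 3 controls held 58 reads in all, and 4.20 under Lyz2Cre, where they held 239. Trim30d had 16482, 15649 and 15526 with LPS, against 531, 459 and 434 in controls, under Lyz2Cre-BHLHE40-Fl, and 16556, 16986 and 16564 with LPS, against 1330.3, 2044 and 987 in controls, under Lyz2Cre. The groups did not overlap, and the log2 changes were 5.07 under Lyz2Cre-BHLHE40-Fl and 3.59 under Lyz2Cre.

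**Figure D2:**
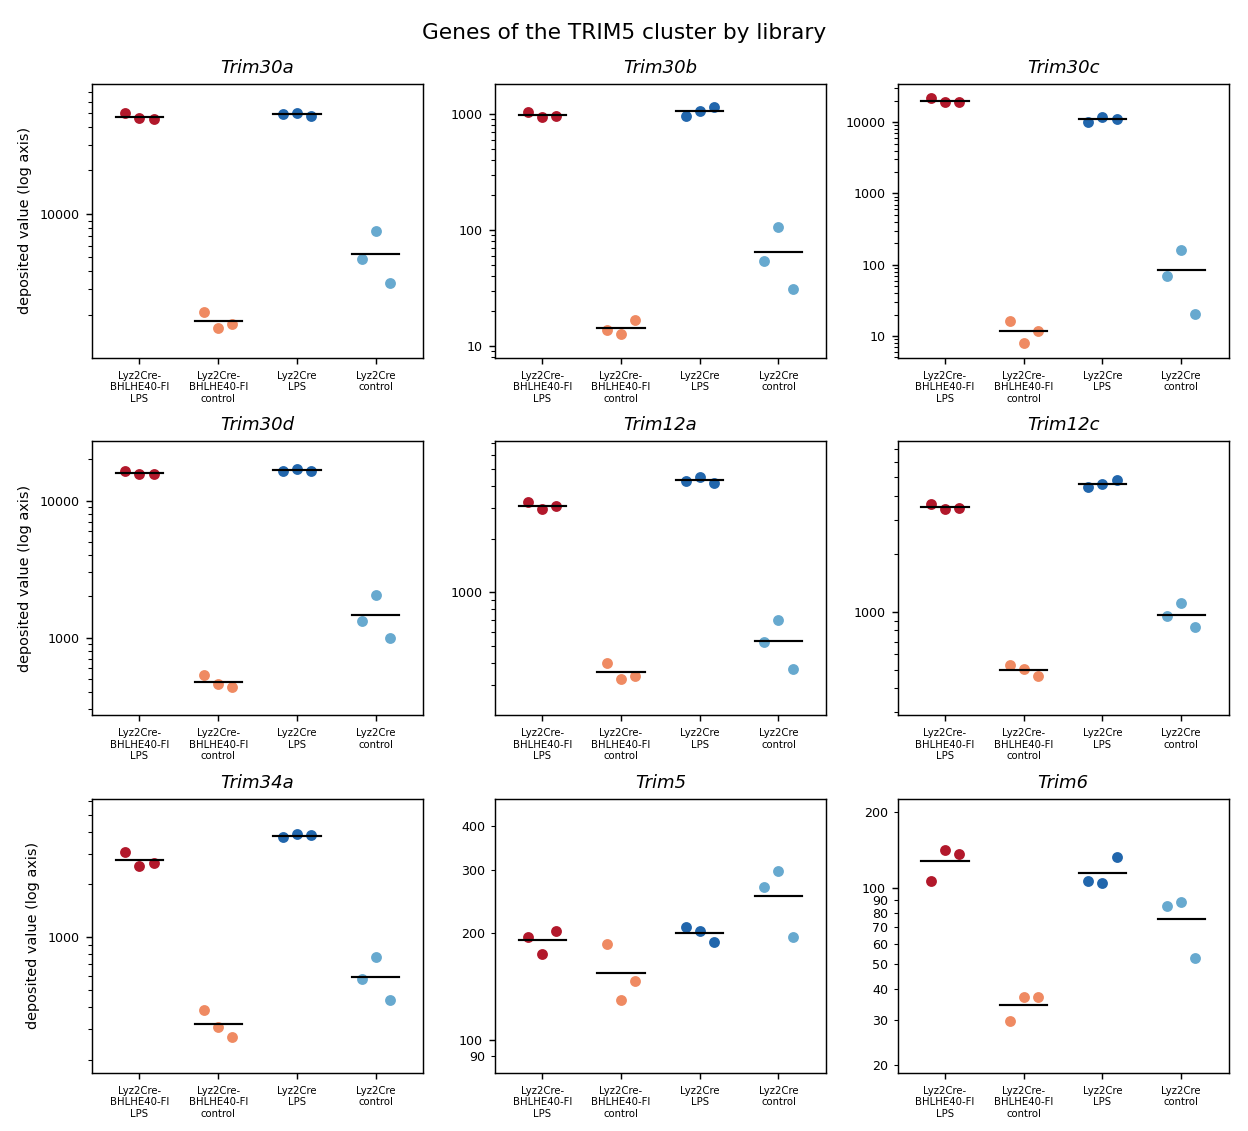
Deposited values (log axes, 1 panel per gene) of 9 genes of the TRIM5 cluster in the 12 libraries, with points for libraries and black lines for group means. LPS libraries stand above controls in all panels but that of Trim5, and Lyz2Cre controls spread more than controls labelled Lyz2Cre-BHLHE40-Fl in the Trim30 panels.

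The other genes of the cluster had smaller changes. Trim12a had 3231, 2972 and 3078 in LPS libraries labelled Lyz2Cre-BHLHE40-Fl, against 399.8, 323 and 335 in controls, and 4245, 4469 and 4143 in Lyz2Cre LPS libraries, against 527, 699 and 370.2 in controls. Its log2 change was 3.14 under Lyz2Cre-BHLHE40-Fl and 3.05 under Lyz2Cre, nearly the same under both labels. Trim12c had 3627, 3406 and 3483 with LPS, against 530, 505 and 463 in controls, under Lyz2Cre-BHLHE40-Fl, a change of 2.81, and 4441, 4608 and 4818 with LPS, against 953, 1107 and 834 in controls, under Lyz2Cre, a change of 2.27. Trim34a had 3066, 2535 and 2634 with LPS, against 387, 307 and 270.3 in controls, under Lyz2Cre-BHLHE40-Fl, a change of 3.10, and 3736, 3853 and 3804 with LPS, against 577, 768 and 441 in controls, under Lyz2Cre, a change of 2.71. In these 3 genes LPS and control libraries did not overlap under either label. Trim6, a ligase known to make unanchored ubiquitin chains for the interferon kinase IKKe, had 107, 141 and 137 with LPS under Lyz2Cre-BHLHE40-Fl, against 29.8, 37.1 and 37.0 in controls. Under Lyz2Cre it had 107, 105 and 132 with LPS, against 84.7, 88.4 and 52.8 in controls. Its log2 change was 1.85 under Lyz2Cre-BHLHE40-Fl and 0.63 under Lyz2Cre, where the call was lost without Lyz2Cre control replicate 3 (0.39, limma adjusted p = 0.139) or LPS replicate 3 (0.52, limma adjusted p = 0.0989), and where equal library totals turned the change to -0.09.

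Trim5 itself changed little. It had 195, 175 and 203 in LPS libraries labelled Lyz2Cre-BHLHE40-Fl, against 187, 129.5 and 146 in controls, and 208, 203 and 188 in Lyz2Cre LPS libraries, against 269, 298 and 195 in controls. Groups overlapped under both labels, and the log2 changes of 0.32 under Lyz2Cre-BHLHE40-Fl and -0.32 under Lyz2Cre had limma adjusted p of 0.112 and 0.111 and were not called. With equal library totals Trim5 was called lower with LPS under Lyz2Cre (-1.05). Trim34b stayed between 0 and 6.2 in every library and was called higher with LPS under both labels. Its 3 LPS libraries held 8 reads in all under Lyz2Cre-BHLHE40-Fl, against 2 in controls, and 8 under Lyz2Cre, against 4 in controls. On those reads edgeR did not call it (edgeR adjusted p = 0.103 under Lyz2Cre-BHLHE40-Fl and 0.24 under Lyz2Cre). The limma call under Lyz2Cre-BHLHE40-Fl ended without Lyz2Cre-BHLHE40-Fl LPS replicate 2 or 3 or Lyz2Cre-BHLHE40-Fl control replicate 1 or 3 (with limma adjusted p up to 0.117), and the call under Lyz2Cre ended on omission of any library other than Lyz2Cre-BHLHE40-Fl control replicate 2 or Lyz2Cre control replicate 2 (with limma adjusted p up to 0.183).

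**Figure D3:**
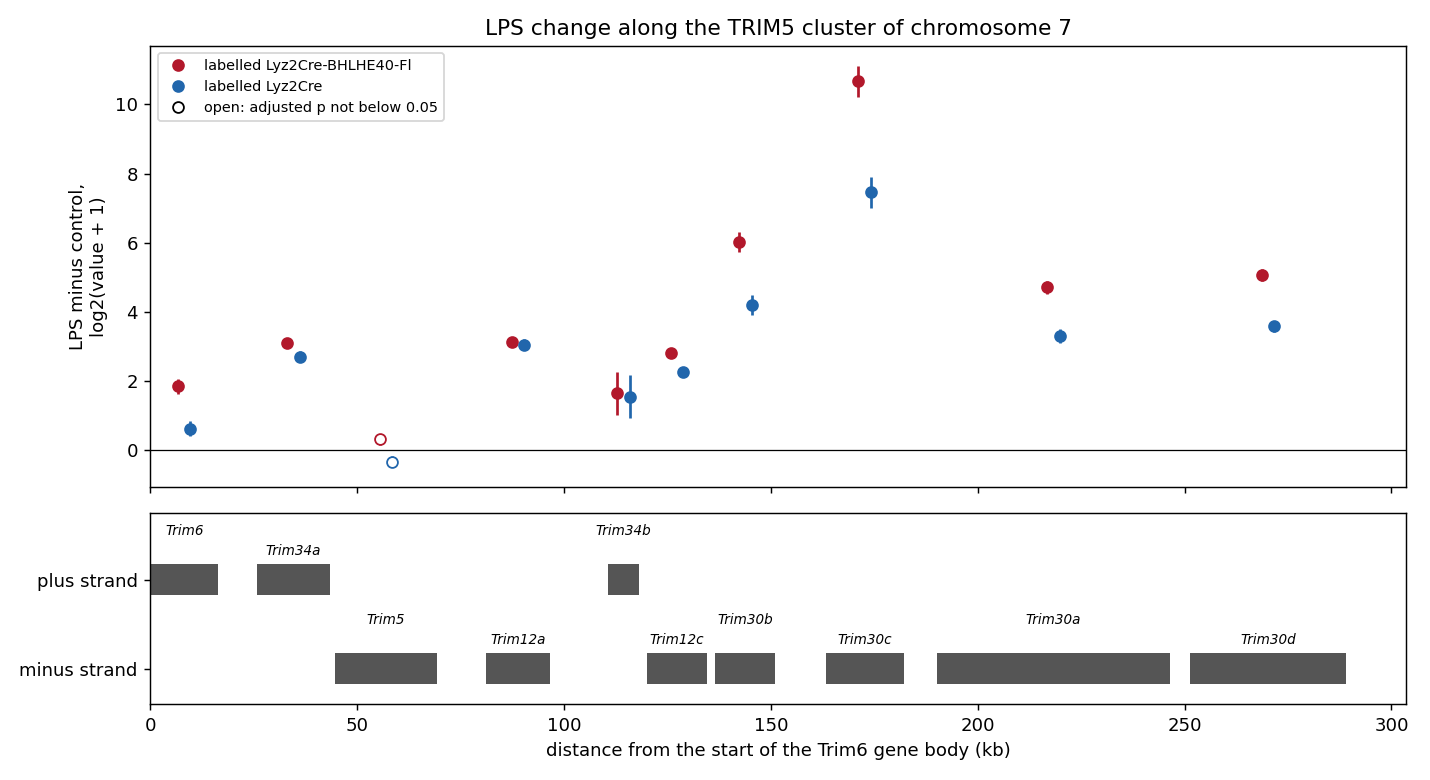
The TRIM5 cluster drawn by distance in kb from the start of Trim6, with gene bodies by strand below and the log2 change with LPS above (bars, standard error), under Lyz2Cre-BHLHE40-Fl (red) and Lyz2Cre (blue). The changes of Trim30b, Trim30c, Trim30a and Trim30d are the upper points, and those of Trim5 are the open ones near 0.

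Near-identical copies set a limit to the reads of single genes. Of the 50-base words in its transcripts, Trim34a shared 59.7% with Trim34b or the antisense gene Gm47248, and Trim34b shared 56.8% with Trim34a or Gm47248. The shares were 36.6% for Trim5, 33.7% for Trim12c and 10.5% for Trim12a, which share words with each other, against 5.98% for Trim30a, 7.49% for Trim30d, 1.48% for Trim30b and 0.66% for Trim30c. How the counting treated such reads is not given in the sources used here, so the split between Trim5, Trim12a and Trim12c and between Trim34a and Trim34b is uncertain. The strand setting is not given either, and an antisense gene covers 23.5% of the exon bases of Trim34a.

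Promoter stretches of the cluster are shown for the genes in which an interferon motif was found, Trim5 among them, which was not called with LPS, while Trim30b and Trim30c had no match. The interferon-stimulated response element, the site that interferon-activated STAT and IRF factors bind, has the core GAAA, any 2 bases, GAAA. This core was searched on both strands of the 300 bases from 250 before to 50 after each RefSeq start (GRCm38.p6). It was found for 9 of 38 TRIM genes with a RefSeq promoter (23.7%) and for 1079 of 27025 genes in all (3.99%). The shorter form GAAANNGAA, which the longer one contains, was found for 12 of the 38 (31.6%) and for 9.76% of all genes. Capitals mark the matches in the stretches below, which read 5′ to 3′ on the strand of the gene, so that a match on the opposite strand appears as TTTC, any 2 bases, TTTC. The stretches of Trim30a (chr7:104465205-104465244, minus strand) and Trim30d (chr7:104507866-104507905, minus strand) lie before the start and have all 40 bases in common.
Trim30a: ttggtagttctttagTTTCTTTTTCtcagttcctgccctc
Trim30d: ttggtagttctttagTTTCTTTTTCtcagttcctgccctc
Trim12c: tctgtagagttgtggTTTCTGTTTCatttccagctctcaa
Trim5: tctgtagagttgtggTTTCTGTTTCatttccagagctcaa
Trim12a: tgtggTTTCTGTTTCatttc
Trim34a: tggagTTTCAGTTTCttttc
Trim21: gagagGAAACTGAAAGTGAAAtttgg
Trim26: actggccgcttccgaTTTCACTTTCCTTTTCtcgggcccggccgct
The stretches of Trim12c (chr7:104353354-104353393, minus strand) and Trim5 (chr7:104288131-104288170, minus strand) have 38 of 40 bases in common, and all 20 bases shown for Trim12a (chr7:104315471-104315490, minus strand) lie within both. Trim12a, Trim34a (chr7:104244462-104244481, plus strand) and Trim21 (chr7:102565449-102565474, minus strand) have their matches within 50 bases after the start. Trim21 and Trim26 (chr17:36836971-36837016, plus strand) each have a pair of overlapping matches. Of the 9 genes with the motif, 7 were called higher with LPS under both labels, Trim2 was called lower under both, and Trim5 was not called. The 9 are not independent, because neighbouring genes with near-identical stretches were each counted, and the share of 23.7% includes them all. Of the 29 genes with a promoter and no match, 9 were called higher under both labels and 5 lower under both. Among all 20419 genes tested, 3907 were called higher under both labels and 3591 lower under both. Trim30b and Trim30c had no match in the window, which reaches 250 bases before the RefSeq start. That RefSeq start lies 11238 bases downstream of the 5′ end of the GENCODE gene for Trim30b and 59 bases for Trim30c. A match here is a description of letters and shows no binding.

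Outside the cluster, the TRIM genes known to act in antiviral and innate sensing moved mostly upward with LPS. Of 10 measured, 7 were called higher and 2 lower under Lyz2Cre-BHLHE40-Fl, and 7 higher and 3 lower under Lyz2Cre. The shares of all genes called higher and lower were 24.9% and 25.6% under Lyz2Cre-BHLHE40-Fl and 25.0% and 23.9% under Lyz2Cre. Trim21, the cytosolic antibody receptor, had 10937, 9574 and 9401 in LPS libraries labelled Lyz2Cre-BHLHE40-Fl, against 601, 529 and 525 in controls. Under Lyz2Cre it had 7805, 8542 and 8289.7 with LPS, against 853, 1051 and 704 in controls. The groups were far apart, with log2 changes of 4.17 (SE 0.11) under Lyz2Cre-BHLHE40-Fl and 3.26 (SE 0.11) under Lyz2Cre. Trim25, the ligase known for ubiquitination of RIG-I, had 10568, 15778 and 15965 with LPS under Lyz2Cre-BHLHE40-Fl, against 2536, 2663 and 2546 in controls. Under Lyz2Cre it had 9585, 8846 and 10477 with LPS, against 3211, 3877 and 2801 in controls. Within the LPS libraries labelled Lyz2Cre-BHLHE40-Fl, replicate 1 lay below the other pair, and its mitochondrial share of reads, 0.756%, was also below theirs of 1.92% and 1.89%. The part of that share in the Trim25 values was not tested. The log2 changes were 2.42 under Lyz2Cre-BHLHE40-Fl and 1.56 under Lyz2Cre.

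Trim26 and Trim56 had intermediate values. Trim26, a regulator of interferon signalling through IRF3, had 3599, 4181 and 4036 in LPS libraries labelled Lyz2Cre-BHLHE40-Fl, against 659, 681 and 655 in controls, and 3015, 3070.4 and 3403 in Lyz2Cre LPS libraries, against 713, 791 and 599 in controls. Trim56, known to act on STING and cGAS, had 4033, 4017 and 3865 with LPS, against 927, 1116 and 1017 in controls, under Lyz2Cre-BHLHE40-Fl, and 4260.3, 4192 and 4369 with LPS, against 1204, 1269 and 987 in controls, under Lyz2Cre. LPS libraries lay above controls without overlap in both genes, by 2.56 under Lyz2Cre-BHLHE40-Fl and 2.18 under Lyz2Cre for Trim26 and 1.96 under Lyz2Cre-BHLHE40-Fl and 1.90 under Lyz2Cre for Trim56 on the log2 scale. Trim14, an adaptor of MAVS and cGAS that lacks a RING finger, had 1647, 1926 and 1823 with LPS, against 270.4, 264 and 298 in controls, under Lyz2Cre-BHLHE40-Fl and 1986, 2035 and 1919 with LPS, against 374, 514 and 311 in controls, under Lyz2Cre. Its changes were 2.69 under Lyz2Cre-BHLHE40-Fl and 2.34 under Lyz2Cre, and Nans on the opposite strand overlaps 31.3% of its exon bases. Trim13, a ligase of the endoplasmic reticulum, had 566, 455 and 539 with LPS, against 245, 193 and 206 in controls, under Lyz2Cre-BHLHE40-Fl, and 675, 756 and 722 with LPS, against 241, 279.7 and 315 in controls, under Lyz2Cre, with changes of 1.28 under Lyz2Cre-BHLHE40-Fl and 1.37 under Lyz2Cre.

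Trim23, which also carries an ARF GTPase domain, changed by only 0.26 under Lyz2Cre-BHLHE40-Fl and 0.37 under Lyz2Cre, and equal library totals turned the values to -0.35 under Lyz2Cre-BHLHE40-Fl and -0.36 under Lyz2Cre. The call under Lyz2Cre-BHLHE40-Fl ended without its control replicate 3 (limma adjusted p = 0.0509). Its values were 795, 758 and 723 with LPS, against 627, 658 and 608 in controls, under Lyz2Cre-BHLHE40-Fl, and 841, 843 and 739 with LPS, against 633, 583 and 659 in controls, under Lyz2Cre. Trim35 had 6466, 6044 and 6404 with LPS, against 3342, 3979.8 and 3762 in controls, under Lyz2Cre-BHLHE40-Fl, and 6507, 5949 and 6042 with LPS, against 3434, 3768 and 3469 in controls, under Lyz2Cre. It was called higher under both labels, by 0.77 under Lyz2Cre-BHLHE40-Fl and 0.79 under Lyz2Cre, and with equal library totals by 0.16 under Lyz2Cre-BHLHE40-Fl and 0.07 under Lyz2Cre, which were not called. Trim72, known from muscle as the membrane repair protein MG53, lay at the lower end, with 11.7, 7.7 and 12.5 with LPS, against 0, 0.8 and 3.6 in controls, under Lyz2Cre-BHLHE40-Fl, and 16.7, 22.1 and 12.4 with LPS, against 0.8, 2.4 and 0 in controls, under Lyz2Cre. The LPS libraries did not overlap the controls, and an antisense gene covers 27.6% of its exon bases. Trim31 and Trim38, also on the antiviral list, did not reach the minimum, and neither did the muscle genes Trim54, Trim55 and Trim63.

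Among the genes that fell with LPS, Trim65, a ligase known to act on MDA5, had 56.2, 56.7 and 57.6 with LPS, against 302, 291 and 286 in controls, under Lyz2Cre-BHLHE40-Fl. Under Lyz2Cre it had 72.3, 103 and 71.5 with LPS, against 249, 289 and 261 in controls. The LPS libraries lay below the controls under both labels, with log2 changes of -2.35 under Lyz2Cre-BHLHE40-Fl and -1.70 under Lyz2Cre. Trim8, which is known to act in NF-kB and STAT3 signalling, had 568, 804 and 761 with LPS, against 981, 1045 and 1039.9 in controls, under Lyz2Cre-BHLHE40-Fl, and 618, 604 and 689 with LPS, against 1457, 1476 and 1061 in controls, under Lyz2Cre. It fell under both labels, with log2 changes of -0.54 under Lyz2Cre-BHLHE40-Fl and -1.05 under Lyz2Cre. Trim16, linked to damaged endomembranes, had 25.7, 10.7 and 30.1 with LPS, against 218, 183 and 224 in controls, under Lyz2Cre-BHLHE40-Fl, and 29.2, 26.2 and 32.7 with LPS, against 134, 158 and 143 in controls, under Lyz2Cre. It fell under both labels, with log2 changes of -3.29 under Lyz2Cre-BHLHE40-Fl and -2.27 under Lyz2Cre with no overlap between groups. Trim29, described in alveolar macrophages as an inhibitor of NEMO, had 31.6, 23.0 and 36.3 with LPS, against 167, 177 and 210.2 in controls, under Lyz2Cre-BHLHE40-Fl, and 66.7, 66.2 and 63.8 with LPS, against 314, 284 and 220.3 in controls, under Lyz2Cre. Its log2 changes were -2.58 under Lyz2Cre-BHLHE40-Fl and -2.02 under Lyz2Cre.

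The NHL-domain genes and the transcriptional intermediary factors moved less uniformly. Of the 4 NHL-domain genes, 1 was called higher and 2 lower with LPS under Lyz2Cre-BHLHE40-Fl, and 2 were called lower under Lyz2Cre. Over all genes tested the shares called higher and lower were 24.9% and 25.6% under Lyz2Cre-BHLHE40-Fl and 25.0% and 23.9% under Lyz2Cre. Trim2, an NHL-domain ligase known from neurons, had 31.6, 52.1 and 41.3 with LPS, against 166, 183 and 212 in controls, under Lyz2Cre-BHLHE40-Fl, and 18.1, 17.9 and 14.0 with LPS, against 111, 113 and 101 in controls, under Lyz2Cre. It fell under both labels, with log2 changes of -2.16 under Lyz2Cre-BHLHE40-Fl and -2.63 under Lyz2Cre with no overlap between LPS and control libraries. Trim32 had 302, 293 and 312 with LPS, against 358, 460.3 and 412 in controls, under Lyz2Cre-BHLHE40-Fl, where it was called lower, and 295, 369.7 and 322 with LPS, against 374, 429 and 371 in controls, under Lyz2Cre, where it was not (limma adjusted p = 0.0767). Among the intermediary factors, which bind chromatin through PHD and bromodomains, Trim24 had 209.5, 216 and 160.3 with LPS, against 401, 378 and 405 in controls, under Lyz2Cre-BHLHE40-Fl, and 135, 142 and 118 with LPS, against 292, 319 and 330 in controls, under Lyz2Cre. It fell under both labels, with log2 changes of -1.02 under Lyz2Cre-BHLHE40-Fl and -1.25 under Lyz2Cre. Trim33 had 1228, 1227 and 1032 with LPS, against 1716, 1419.5 and 1502 in controls, under Lyz2Cre-BHLHE40-Fl, and 1041, 995 and 977 with LPS, against 1245, 1291 and 1317 in controls, under Lyz2Cre, changes of -0.41 under Lyz2Cre-BHLHE40-Fl and -0.35 under Lyz2Cre. Trim37, a peroxisomal and centrosomal ligase, had 284, 344 and 283 with LPS, against 1089, 825 and 878 in controls, under Lyz2Cre-BHLHE40-Fl, and 200.1, 221 and 215 with LPS, against 611, 697 and 687 in controls, under Lyz2Cre, with log2 changes of -1.61 under Lyz2Cre-BHLHE40-Fl and -1.64 under Lyz2Cre. The other genes called lower under both labels were Trim7, Trim45 and Trim62, with log2 changes of -2.61, -1.12 and -0.56 under Lyz2Cre-BHLHE40-Fl and -2.21, -1.02 and -0.63 under Lyz2Cre. The call of Trim62 under Lyz2Cre-BHLHE40-Fl ended without Lyz2Cre-BHLHE40-Fl LPS replicate 1 or 3 or Lyz2Cre-BHLHE40-Fl control replicate 1 or 3 (with limma adjusted p up to 0.148), and that under Lyz2Cre without Lyz2Cre LPS replicate 2 or Lyz2Cre control replicate 1 (with limma adjusted p up to 0.0750).

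In controls, the TRIM5 cluster was lower under the label Lyz2Cre-BHLHE40-Fl. In the family 6 genes were called higher and 15 lower than in Lyz2Cre controls, where 15.0% and 16.6% of all genes tested were called (31.6% in either direction), and the median log2 difference was -0.04, against 0.00 over all genes. Without control replicate 3 of the label Lyz2Cre-BHLHE40-Fl, 3 were called higher. Of the 15, 9 were in the cluster, whose median difference was -1.01. Trim30c averaged 11.8 ± 4.06 in controls labelled Lyz2Cre-BHLHE40-Fl and 84.1 ± 72.0 in Lyz2Cre controls (SD, n = 3 each), a log2 difference of -2.33 (limma adjusted p = 0.000487), which was not called when these 6 libraries were fitted alone (limma adjusted p = 0.0711). In that fit 8 TRIM genes were called lower, and Trim5, Trim12a and Trim14 were not among them. Trim30d averaged 475 ± 50.6 in controls labelled Lyz2Cre-BHLHE40-Fl and 1454 ± 539 in Lyz2Cre controls. The differences of Trim30b, Trim30d and Trim30a were -1.91, -1.55 and -1.46, and no library of one label overlapped those of the other. Trim6, Trim12c, Trim34a and Trim5 were lower by log2 differences of -1.07, -0.94, -0.87 and -0.71. Trim12a had a difference of -0.55, with groups that overlapped, and without Lyz2Cre control replicate 2 it was -0.33 (limma adjusted p = 0.0541).

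The Lyz2Cre controls were not alike. In 9 of the 10 cluster genes their values ran in the order replicate 2, replicate 1, replicate 3, from high to low. The same order was seen in 21 of the 42 TRIM genes with a group mean of at least 10 (50%) and in 18.6% of all genes tested. Isg15, a ubiquitin-like interferon-induced protein, had 26.2, 20.5 and 29.7 in controls labelled Lyz2Cre-BHLHE40-Fl and 222, 347 and 67.8 in Lyz2Cre controls, replicates 1 to 3. Irf7, the interferon regulatory factor, had 211, 207 and 207 in controls labelled Lyz2Cre-BHLHE40-Fl and 8054, 14704 and 2388 in Lyz2Cre controls. The Lyz2Cre controls thus ranged over several-fold in genes outside the family too, in the order of the Trim30 genes. Every Lyz2Cre control still lay above every control labelled Lyz2Cre-BHLHE40-Fl in both genes.

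Outside the cluster, Trim46 had the largest negative difference in controls. Trim46, known for organising microtubules in axons, had 7.3, 12.6 and 17.4 in controls labelled Lyz2Cre-BHLHE40-Fl and 68.5, 60.0 and 51.1 in Lyz2Cre controls, which is -2.24 on the log2 scale (limma adjusted p = 5.45e-05). Its LPS libraries had 23.4, 15.3 and 35.1 under Lyz2Cre-BHLHE40-Fl and 63.9, 86.9 and 54.4 under Lyz2Cre, a difference of -1.49. The labels did not overlap in either treatment. With LPS Trim46 was called higher under Lyz2Cre-BHLHE40-Fl (0.93), a call that ended without Lyz2Cre-BHLHE40-Fl LPS replicate 1 or 3 or Lyz2Cre-BHLHE40-Fl control replicate 1 or 2 (with limma adjusted p up to 0.169), and the value was 0.62 without control replicate 1 of that label. Trim21 and Trim14 were lower in controls by log2 differences of -0.64 and -0.50, the second of which was -0.30 without Lyz2Cre control replicate 2. Trim13, Trim29 and Trim8 were called lower, by -0.37, -0.55 and -0.37, and each call was lost on some omissions. That of Trim13 ended without Lyz2Cre-BHLHE40-Fl control replicate 2 or 3 or Lyz2Cre control replicate 2 or 3 (with limma adjusted p up to 0.114), that of Trim29 without Lyz2Cre-BHLHE40-Fl control replicate 1 or 2 or Lyz2Cre control replicate 1 or 2 (up to 0.157) and that of Trim8 without Lyz2Cre-BHLHE40-Fl control replicate 1, 2 or 3, Lyz2Cre LPS replicate 1 or Lyz2Cre control replicate 1 or 2 (up to 0.162). Among the genes called higher, Trim36 and Trim37 kept the call whichever library was left out, and Trim2, Trim33, Trim68 and Trim9 did not. The call of Trim2 ended without Lyz2Cre-BHLHE40-Fl control replicate 3 (limma adjusted p = 0.0578), that of Trim33 without Lyz2Cre-BHLHE40-Fl control replicate 1 or Lyz2Cre control replicate 1 or 2 (up to 0.126), that of Trim68 without Lyz2Cre-BHLHE40-Fl control replicate 1, 2 or 3 or Lyz2Cre control replicate 1 or 2 (up to 0.0923) and that of Trim9 without Lyz2Cre-BHLHE40-Fl control replicate 2 or 3 or Lyz2Cre control replicate 3 (up to 0.0841).

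Trim36, a microtubule-associated ligase, was among the genes higher under the label Lyz2Cre-BHLHE40-Fl in both treatments. It had 328, 296 and 291 in controls labelled Lyz2Cre-BHLHE40-Fl and 151, 135 and 157 in Lyz2Cre controls. With LPS it had 617, 690 and 716 under Lyz2Cre-BHLHE40-Fl and 481, 469 and 586 under Lyz2Cre. It was called higher with LPS under both labels, by 1.14 under Lyz2Cre-BHLHE40-Fl and 1.78 under Lyz2Cre. Each label stood apart from the other in both treatments, by log2 differences of 1.04 in controls (limma adjusted p = 6.57e-07) and 0.40 with LPS (limma adjusted p = 0.00759). Trim2 differed by 0.78 in controls and 1.25 with LPS and Trim37 by 0.48 in controls and 0.51 with LPS. Trim9, a neuronal ligase, had 3.6, 7.1 and 5.1 in controls labelled Lyz2Cre-BHLHE40-Fl and 0.8, 0.8 and 0 in Lyz2Cre controls. It held only 35 reads over all 12 libraries.

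With LPS, 12 TRIM genes were higher and 8 lower under Lyz2Cre-BHLHE40-Fl than under Lyz2Cre, where 17.7% and 19.8% of all genes tested were called (37.4% in either direction), and the family median was -0.01, against -0.02 over all genes. With equal library totals, which moved the median of all genes to 0.22, the family counts were 18 higher and 2 lower, and in controls, where the median moved to 0.17, they were 10 and 10. In LPS libraries 7 of the 10 cluster genes were not called between labels. The cluster had a median difference of -0.08, and Trim30a, Trim30b and Trim30d had differences of -0.06, -0.09 and -0.07 with limma adjusted p from 0.776 to 0.86. Trim12a, Trim12c and Trim34a were called lower, by -0.47, -0.40 and -0.47, and with equal library totals none of the 3 was called (-0.18, -0.11 and -0.19). The call of Trim12a also ended without Lyz2Cre-BHLHE40-Fl LPS replicate 2 or 3 or Lyz2Cre LPS replicate 1 or 2 (with limma adjusted p up to 0.0702), and that of Trim34a without Lyz2Cre-BHLHE40-Fl LPS replicate 2 or 3 or Lyz2Cre LPS replicate 1, 2 or 3 (up to 0.0841). Trim30c was higher in all 3 LPS libraries labelled Lyz2Cre-BHLHE40-Fl, with a log2 difference of 0.87, which limma did not call (limma adjusted p = 0.145) and edgeR on the recovered reads did (edgeR adjusted p = 0.00347).

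Trim47 had the largest difference between labels with LPS. Trim47, a ligase first described in brain tumours, had 364, 400.2 and 417 in LPS libraries labelled Lyz2Cre-BHLHE40-Fl and 62.5, 44.1 and 79.3 in Lyz2Cre LPS libraries. In controls Trim47 had 398, 456 and 420.3 under Lyz2Cre-BHLHE40-Fl and 471, 443 and 389 under Lyz2Cre. Of the 4 groups, the Lyz2Cre LPS libraries stood apart, with a log2 difference of 2.69 between labels (SE 0.16, limma adjusted p = 4.93e-10) and a change with LPS of -0.11 under Lyz2Cre-BHLHE40-Fl and -2.83 under Lyz2Cre. Trim47 and its neighbour Trim65 lie on the same strand of chromosome 11 (chr11:116105752-116127210 and chr11:116121846-116131128) and share 225 bases of exon, so a read there can be assigned to either.

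Trim3, Trim28 and Trim44 were also called higher under Lyz2Cre-BHLHE40-Fl with LPS. Trim3, an NHL-domain ligase, had 802, 939.9 and 956 in LPS libraries labelled Lyz2Cre-BHLHE40-Fl and 600.3, 548 and 516 in Lyz2Cre LPS libraries. In controls its values were 748, 724 and 729.7 under Lyz2Cre-BHLHE40-Fl and 778, 820.3 and 688 under Lyz2Cre. It was the only TRIM gene called in opposite directions with LPS, 0.29 under Lyz2Cre-BHLHE40-Fl and -0.46 under Lyz2Cre. The first of these calls ended without LPS replicate 2 (0.25, limma adjusted p = 0.0585) or 3 (0.24, limma adjusted p = 0.0682) of that label, and turned to -0.33 with equal library totals. Trim28, the corepressor KAP1, had 4874, 4437 and 4741 in LPS libraries labelled Lyz2Cre-BHLHE40-Fl and 3353, 3469 and 2971 in Lyz2Cre LPS libraries, with 3255, 3394 and 3586 in controls labelled Lyz2Cre-BHLHE40-Fl and 3213, 3274 and 3028 in Lyz2Cre controls. The log2 difference was 0.52 with LPS (limma adjusted p = 1.36e-05) and 0.10 in controls (limma adjusted p = 0.308). Trim44 differed by 0.52 with LPS and by 0.17 in controls.

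**Figure D4:**
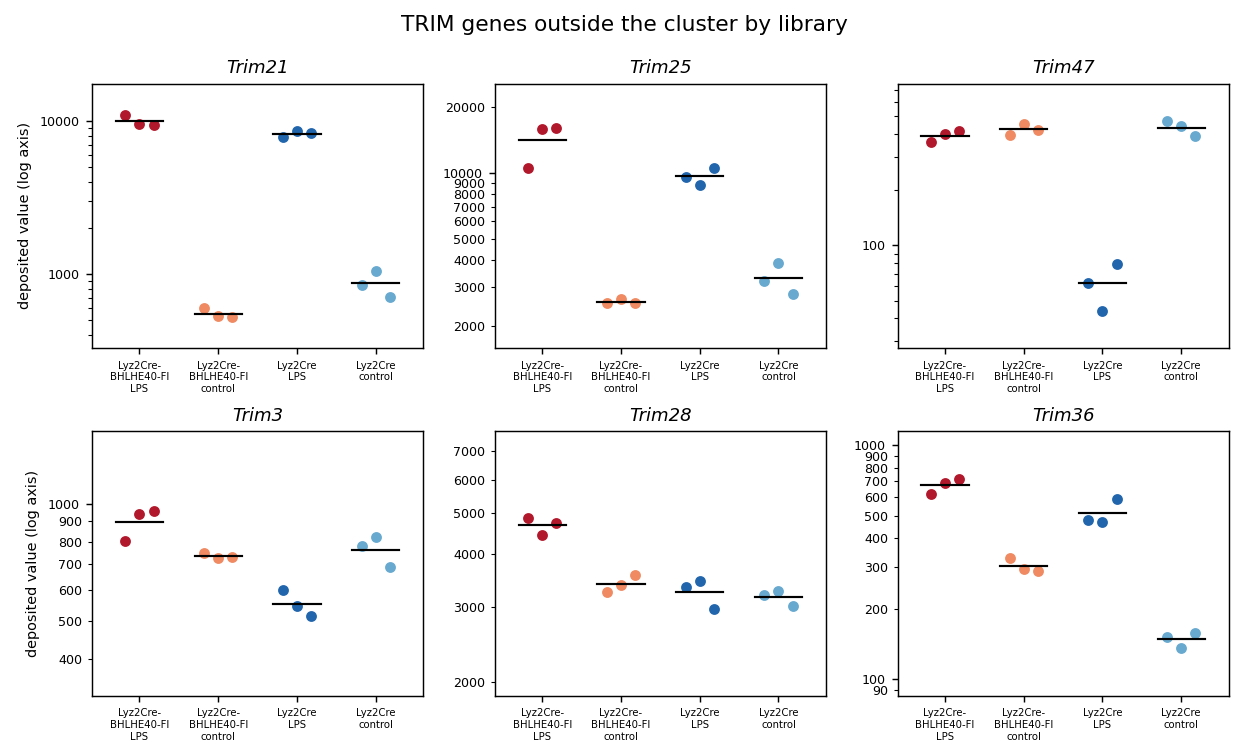
Deposited values (log axes, 1 panel per gene) of 6 TRIM genes outside the cluster in the 12 libraries, with points for libraries and black lines for group means. Trim47 is lower in the 3 Lyz2Cre LPS libraries, at 44.1 to 79.3, than in the other 9 libraries, at 364 to 471.

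Smaller differences with LPS were seen in the ligases of innate sensing. Trim25 and Trim26 were higher under Lyz2Cre-BHLHE40-Fl, by 0.53 and 0.32, and the difference of Trim25 was not called when these 6 libraries were fitted alone (limma adjusted p = 0.0642). The call of Trim26 ended without Lyz2Cre LPS replicate 1 or Lyz2Cre-BHLHE40-Fl LPS replicate 2, with limma adjusted p of 0.0529 and 0.0586. Trim27, a ligase of the retromer and WASH pathway, had 823, 839 and 927 in LPS libraries labelled Lyz2Cre-BHLHE40-Fl and 743, 726 and 647 in Lyz2Cre LPS libraries, a difference of 0.29, with 867, 878 and 889.9 in controls labelled Lyz2Cre-BHLHE40-Fl and 907, 957 and 945 in Lyz2Cre controls. Trim24 was higher by 0.56, and Trim59, with 33.9, 39.9 and 36.3 in LPS libraries labelled Lyz2Cre-BHLHE40-Fl and 29.2, 17.9 and 17.1 in Lyz2Cre LPS libraries, by 0.79, a call that edgeR did not make (edgeR adjusted p = 0.0663) and that ended without Lyz2Cre-BHLHE40-Fl LPS replicate 2 or 3 or Lyz2Cre LPS replicate 2 or 3 (with limma adjusted p up to 0.116). Trim59 had 47.3, 60.8 and 64.5 in controls labelled Lyz2Cre-BHLHE40-Fl and 48.5, 34.9 and 59.5 in Lyz2Cre controls. Trim13, Trim29, Trim41 and Trim65 were called lower, by -0.47, -1.11, -0.46 and -0.51, and without Lyz2Cre LPS replicate 2 the value of Trim65 was -0.33 (limma adjusted p = 0.0885).

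The change with LPS itself differed between the labels for 17 TRIM genes. The difference, the LPS change under Lyz2Cre-BHLHE40-Fl minus that under Lyz2Cre, was called above 0 for 14 and below 0 for 3, where 9.52% and 9.31% of all genes tested were called (18.8% in either direction), and its median was 0.12 in the family and -0.03 over all genes. In the cluster 6 of 10 genes were called above 0, with a median of 0.94. The largest was Trim30c at 3.21 (SE 0.63, limma adjusted p = 0.00133), followed by Trim47 at 2.72 (SE 0.23, limma adjusted p = 1.31e-07), Trim30b at 1.82, Trim30d at 1.48 and Trim30a at 1.40. For the 4 Trim30 genes it came with lower controls under Lyz2Cre-BHLHE40-Fl, for Trim30c also with higher LPS values under that label, and for Trim47 with lower LPS values under Lyz2Cre. Trim12a had a difference of 0.08 (SE 0.21, limma adjusted p = 0.854). Trim36 was among the genes called below 0, at -0.64 (limma adjusted p = 0.00689).

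The pathway around the family was taken as 22 genes, all of them measured. They included RNA and DNA sensors, their adaptors and kinases and the ISG15 conjugation enzymes. The list held 25 symbols, because some genes stood under both an older and a newer symbol. With LPS 18 of the 22 were called higher and 2 lower under Lyz2Cre-BHLHE40-Fl, and 18 higher and 1 lower under Lyz2Cre, with medians of 2.23 and 1.82. Over all genes tested the shares called higher and lower with LPS were 24.9% and 25.6% under Lyz2Cre-BHLHE40-Fl and 25.0% and 23.9% under Lyz2Cre, with medians of -0.05 and 0. In controls, 1 was higher and 14 lower under Lyz2Cre-BHLHE40-Fl than under Lyz2Cre (15.0% and 16.6% of all genes), with a median of -0.37, against 0.00 over all genes. With LPS 2 were higher and 6 lower (17.7% and 19.8% of all genes), with a median of -0.08, against -0.02 over all genes. Isg15 averaged 18783 ± 4057 in LPS libraries labelled Lyz2Cre-BHLHE40-Fl, against 25.5 ± 4.64 in their controls, and 15085 ± 1787 in Lyz2Cre LPS libraries, against 212 ± 139.8 in Lyz2Cre controls (SD, n = 3 each). Usp18, which removes ISG15, changed with LPS by 8.96 under Lyz2Cre-BHLHE40-Fl and 5.71 under Lyz2Cre, Irf7 by 7.95 and 3.0, and Ifih1, which encodes the RNA sensor MDA5, by 6.03 under Lyz2Cre-BHLHE40-Fl and 5.14 under Lyz2Cre. Between the labels with LPS, Mb21d1, the DNA sensor cGAS, was higher by 0.64 and Zc3hav1, the antiviral protein ZAP, lower by -0.63. Of 9 genes for ubiquitin and its conjugating and activating enzymes, 7 were called higher with LPS under each label, and 1 was called lower under Lyz2Cre, beside the same shares of all genes. Their median log2 changes were 0.997 under Lyz2Cre-BHLHE40-Fl and 0.706 under Lyz2Cre, beside the same medians of all genes.

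Some tripartite motif genes carry other symbols. Of 6 measured, Pml, Mid1 and Mefv were called higher with LPS under both labels, and Mid2 was called lower under Lyz2Cre. The shares of all genes called higher and lower were 24.9% and 25.6% under Lyz2Cre-BHLHE40-Fl and 25.0% and 23.9% under Lyz2Cre. Pml, the organiser of nuclear bodies, had 5619, 8133 and 7828 in LPS libraries labelled Lyz2Cre-BHLHE40-Fl, against 457, 512 and 469 in controls, and 5471, 5406 and 6367 in Lyz2Cre LPS libraries, against 808, 1136 and 550.2 in controls. Mefv, the inflammasome protein pyrin, had 2748, 2578 and 2477 with LPS, against 90.9, 49.7 and 75.4 in controls, under Lyz2Cre-BHLHE40-Fl, and 5161, 6133 and 5879 with LPS, against 835, 946 and 796 in controls, under Lyz2Cre. Controls labelled Lyz2Cre-BHLHE40-Fl had less Mefv than Lyz2Cre controls in every library, by -3.60 on the log2 scale, and the LPS libraries by -1.14. Mid2, a microtubule-associated ligase, had 16.4, 21.5 and 17.5 with LPS, against 24.0, 24.5 and 28.3 in controls, under Lyz2Cre-BHLHE40-Fl, a change of -0.46 that was not called (limma adjusted p = 0.498). Under Lyz2Cre it had 0, 2.8 and 1.6 with LPS, against 10.0, 13.8 and 4.2 in controls, a change of -2.14 (limma adjusted p = 0.00186), and whether these changes differ was not called (limma adjusted p = 0.125), except without Lyz2Cre control replicate 3 (limma adjusted p = 0.0470). Mid2 was higher under Lyz2Cre-BHLHE40-Fl than under Lyz2Cre with LPS, by 3.17 (limma adjusted p = 8.21e-05), and in controls by 1.49 (limma adjusted p = 0.0339), a call that ended with a pseudocount of 0.1 (limma adjusted p = 0.256), with no filter on low values (0.0740) and on omission of any control library other than Lyz2Cre control replicate 2 (up to 0.160).

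Of the 50 genes, 44 were called in at least 1 of the 5 comparisons, as were 70.2% of all genes tested. Trim11 was called higher with LPS under Lyz2Cre-BHLHE40-Fl alone (0.33, against 0.26 under Lyz2Cre) and Trim39 under Lyz2Cre alone (0.36, against 0.21 under Lyz2Cre-BHLHE40-Fl), and whether these changes differ was not called (limma adjusted p = 0.86 and 0.572). The call of Trim11 ended without Lyz2Cre-BHLHE40-Fl LPS replicate 1 or 3 or Lyz2Cre-BHLHE40-Fl control replicate 1 or 3 (with limma adjusted p up to 0.130) and that of Trim39 without Lyz2Cre LPS replicate 2 (limma adjusted p = 0.0663). With equal library totals these changes turned to -0.29 for Trim11 under Lyz2Cre-BHLHE40-Fl and -0.36 for Trim39 under Lyz2Cre. Trim68 was called lower with LPS than in controls under Lyz2Cre-BHLHE40-Fl (-0.39). That call ended on omission of any library other than Lyz2Cre-BHLHE40-Fl LPS replicate 1 (with limma adjusted p up to 0.211). The 8 genes whose group means all stayed below 10 were Trim9, Trim17, Trim34b, Trim43a, Trim43b, Trim66, Trim69 and Trim71. Among the 18 that missed the minimum, 9 were at 0 in every library, Trim55 among them, and Trim31, Trim38, Trim54 and Trim63 had at most 2.9 in any library. In the counts of genes whose libraries did not overlap, 23 were higher and 15 lower with LPS under Lyz2Cre-BHLHE40-Fl (26.7% and 28.9% of all genes), 21 and 18 under Lyz2Cre (27.5% and 27.0%), 9 and 16 between labels in controls (20.4% and 20.9%) and 14 and 11 between labels with LPS (21.4% and 24.6%).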

How the data were processed

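RNA-seq was made from 12 libraries of peritoneal macrophages, 3 in each of 4 groups, with RNA purified on High Pure columns and a standard Illumina library, per the labels' protocols. The submitters' processing notes name mm10, STAR, Cufflinks and Cuffdiff, with no role, order or version. The authors deposited 1 table of scaled signal values per gene, whose scaling is not stated. From the values, each library is whole reads times 1 factor: 100% of values up to 10000 reads were whole multiples within 0.06, which gave 20489417 to 29354869 reads per library, so low genes rest on few reads. The limma test had been planned for values expected to be normalized and was kept as the main test. Count tests on the recovered reads served as alternatives.

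The 20419 genes that reached 1 in 3 libraries were fitted on log2(value + 1) with limma 3.58.1 (trend) in R 4.3.3, with 1 mean per group over all 12 libraries and Benjamini-Hochberg adjustment over all genes tested. Fold changes on this scale understate the change of low genes. Calls are adjusted p below 0.05. Alternatives were pseudocounts of 5 and 0.1, other filters, equal totals, TMM, a replicate block, the 2 compared groups alone, 12 omissions, and edgeR 4.0.16 and DESeq2 1.42.0 on recovered reads. The fit was tested on simulated data with 200 changed genes per comparison. All groups were drawn from the Lyz2Cre control means with 1 fixed spread for all genes, and changed genes had to reach a minimum mean. Real libraries can vary more, as Trim30c did in Lyz2Cre controls (84.1 ± 72.0, SD, n = 3). The shares below therefore hold for that setting and not for every gene here. For LPS under Lyz2Cre-BHLHE40-Fl (20013 genes) calls were made for 86% of those set to 2-fold and 100% of those set to 4-fold, for LPS under Lyz2Cre (20046) for 87% and 100%, between labels in controls (20025) for 84% and 100%, between labels with LPS (20034) for 88% and 100%, and for the difference of LPS changes (19972) for 47% and 98%. Genes are named by a rule on family membership, calls and size of change, and the family, the lists and the rule were chosen with earlier results of these data known. Libraries of the same group were further apart than sampling noise (chi-square per degree of freedom 7.35 to 72.2 over 12 pairs). Gene positions are GENCODE's on GRCm38, and promoters RefSeq's on GRCm38.p6, found for 38 of 50 genes.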

Additional observations from a re-analysis of the deposited data

Results flagged for a closer look

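For 17 TRIM genes the change with LPS differed between the genotype labels by limma's test of that difference, given here as the log2 change under Lyz2Cre-BHLHE40-Fl minus that under Lyz2Cre. In the TRIM5 cluster the differences were 3.21 for Trim30c, 1.82 for Trim30b, 1.48 for Trim30d, 1.40 for Trim30a, 1.22 for Trim6 and 0.54 for Trim12c. Outside it they were 2.72 for Trim47, 0.92 for Trim21, 0.87 for Trim25, 0.74 for Trim3, 0.42 for Trim28, 0.38 for Trim27, 0.38 for Trim26 and 0.35 for Trim44. Below 0 lay Trim65 at -0.65, Trim36 at -0.64 and Trim41 at -0.45. The call of Trim26 ended on omission of any library other than Lyz2Cre-BHLHE40-Fl LPS replicate 1, Lyz2Cre LPS replicate 3 or Lyz2Cre control replicate 3 (limma adjusted p up to 0.130), that of Trim65 on omission of any library other than Lyz2Cre LPS replicate 1 or 3 (up to 0.115) and that of Trim27 without Lyz2Cre LPS replicate 3 or Lyz2Cre-BHLHE40-Fl LPS replicate 3 (up to 0.0608). The mesothelial and stromal markers that were higher under Lyz2Cre-BHLHE40-Fl in both treatments moved with the same labels, and their part in these differences was not tested.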

How the results depend on the processing

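With equal library totals 10 TRIM genes were called higher between labels in controls, 2 lower between labels with LPS, and 1 below 0 for the difference of LPS changes. The LPS change then turned negative under Lyz2Cre for Trim11 (-0.46), Trim23 (-0.36), Trim28 (-0.69), Trim39 (-0.36), Trim41 (-0.57) and Trim6 (-0.092), and under Lyz2Cre-BHLHE40-Fl for Trim11 (-0.29), Trim23 (-0.35), Trim28 (-0.16), Trim3 (-0.33) and Trim39 (-0.41), and for Trim44 it was -0.55. The median of all genes moved by construction with the totals. With the 2 compared groups alone 8 were called lower in controls. Libraries with the same replicate number did not deviate together over all genes tested (18 correlations of deviations from -0.066 to 0.028). Low correlations over all genes, noisy ones included, cannot exclude that such libraries were paired. The fit with a replicate block called 23 higher and 13 lower with LPS under Lyz2Cre-BHLHE40-Fl, and 20 and 16 under Lyz2Cre. It called 6 and 15 between labels in controls, 12 and 8 with LPS, and 13 and 2 for the difference of LPS changes. Leaving out 1 library gave 19 to 23 higher and 12 to 13 lower with LPS under Lyz2Cre-BHLHE40-Fl, 18 to 21 and 15 to 17 under Lyz2Cre, 3 to 7 and 11 to 16 between labels in controls, 10 to 14 and 6 to 8 with LPS, and 12 to 18 and 2 to 3 for the difference. On recovered reads edgeR called 22 higher and 14 lower with LPS under Lyz2Cre-BHLHE40-Fl and 19 and 16 under Lyz2Cre, and DESeq2 22 and 13, and 19 and 16. The cause of the other shifts was not tested. Genes with a few reads per library cannot show small differences at this depth.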
